A study of Bos taurus with 6 samples.

Results

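The antioxidant and NRF2 target genes described here are 10 genes that handle reactive oxygen or supply the thiols used to do so. They are *GCLC*, *GCLM*, *TXNRD1*, *SRXN1*, *NQO1*, *HMOX1*, *SOD1*, *SOD2*, *CAT* and *GPX1*, and they were found by gene symbol in the gene table the authors deposited. All 10 were present, each on a single row, among 17663 genes, of which 14882 had a symbol. The cells were bovine fetal fibroblasts (bEFs), connective tissue cells in primary culture, grown from cattle fetuses of 50–60 days. FT cells carried the *fat-1* transgene, a *Caenorhabditis elegans* gene for an enzyme that turns n-6 polyunsaturated fatty acids into n-3 fatty acids, and the WT cultures were derived from unmodified Luxi cattle. Each group had 3 fetuses with 1 poly(A) RNA library per fetus (FT_1, FT_2 and FT_3, and WT_1, WT_2 and WT_3). The promoter of the transgene, its site of insertion and the breed of the FT fetuses are not given in the sources used here, and the transgene was not analysed here. The passage at which RNA was taken is not given either, so genotype cannot be told apart from other differences between the cultures.

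NRF2, the product of *NFE2L2*, is a transcription factor that is bound by KEAP1 and degraded in unstressed cells. Oxidants and electrophiles modify KEAP1, NRF2 then accumulates, pairs with a small MAF protein and binds antioxidant response elements near genes for glutathione synthesis, thioredoxin recycling, quinone reduction and heme breakdown. *GCLC*, *GCLM*, *TXNRD1*, *SRXN1*, *NQO1* and *HMOX1* are well-known targets of this kind, whereas the superoxide dismutases, catalase and glutathione peroxidase remove superoxide and peroxides and are also under other control.

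For every gene the table listed counts of fragments per library and their FPKM, that is, fragments divided by gene length and library total. Total counts were 63366834, 48167642 and 54204446 for FT_1 to FT_3, against 69777641, 51310741 and 54271927 for WT_1 to WT_3. FT_1 stood apart from the other FT libraries. Beyond counting noise, genes varied between libraries by a biological coefficient of variation of 56.9% between FT_1 and FT_2 and 57.6% between FT_1 and FT_3. It was 8.23% between FT_2 and FT_3 and 9.99% to 13.4% between WT libraries. Of the 13482 genes tested, 3028 (22.5%) differed by over 2-fold in scaled counts between FT_1 and the mean of FT_2 and FT_3, and so did 5 of the 10 antioxidant genes (*GCLC*, *NQO1*, *SOD2*, *CAT* and *GPX1*). Fold changes and counts of calls are therefore given with all 6 libraries and without FT_1, while correlations between genes use all 6. The fit without FT_1 has only FT_2 and FT_3 as FT libraries, the pair that varied least (8.23%). Its adjusted p-values rest on that pair and do not measure the spread that FT_1 adds between FT fetuses.

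Marker genes were read to check the labelled cell type. All 10 fibroblast markers had an FPKM of at least 1 in all 6 libraries. Their summed FPKM was 6935, 17144 and 16882 in FT_1, FT_2 and FT_3, against 18037, 17458 and 17589 in WT_1, WT_2 and WT_3. FT_1 thus had the lowest fibroblast marker sum of the 6 libraries. *VIM*, for the intermediate filament vimentin, stood at 1244, 3850 and 4171 FPKM in FT_1, FT_2 and FT_3 and at 7312 to 8178 FPKM in WT cells, and led in FT_3 and the WT libraries, while *DCN*, for the matrix proteoglycan decorin, led in FT_1 and FT_2. The markers did not go one way. Of the 10, *PDGFRA* was called higher in FT cells (log2 fold change 1.06, adjusted p = 0.00554; 0.89 without FT_1) and *FBN1* lower (-0.65, adjusted p = 0.0103; -0.64 without FT_1), and *PDGFRA* and *THY1* were highest in FT_1. The call of *PDGFRA* was lost with a replicate block (the library number as a term in the fit) and the trend over gene length removed together (adjusted p = 0.0539), and that of *FBN1* without WT_1 (adjusted p = 0.0551). Without FT_1, 5 of the 10 were called higher (*PDGFRA*, *COL1A1*, *PDGFRB*, *DCN* and *LUM*) and 2 lower (*VIM* and *FBN1*), where 30.6% of all genes were higher and 31.5% lower (20.0% and 18.9% with all 6 libraries). The 6 epithelial markers summed to an FPKM of 142 in FT_1, 11.9 in FT_2, 13.0 in FT_3 and 7.92 to 14.2 in WT cells. *KRT8*, a keratin, led in FT_1 and *CDH1* in the other 5 libraries. *KRT8* stood at 84.1, 0.95 and 0.61 FPKM in FT_1, FT_2 and FT_3 and was at 0 in the 3 WT libraries, and *EPCAM* was at 0.57 in FT_1 and at 0 in the other 5 libraries. *KRT18*, another keratin gene, stood at 11.2, 0.34 and 0.18 in FT_1, FT_2 and FT_3 and at 0 in the WT libraries. *CLDN4* was called higher in FT cells, at 3.39 to 3.82 FPKM against 0.09 to 0.33 (log2 fold change 4.22, adjusted p = 0.00184; 4.23 without FT_1). Without FT_1, *KRT8* (adjusted p = 1.54e-05) and *KRT18* (adjusted p = 0.00103) were called higher too. That made 3 of the 6 epithelial markers, of which *EPCAM* and *KRT19* were not tested, where 30.6% of all genes were higher. *CDH1* stood at 36.3, 7.11 and 8.41 FPKM in FT_1, FT_2 and FT_3 and at 7.83 to 13.9 in WT cells. It was not called, with a log2 fold change of 0.85 (adjusted p = 0.349), and -0.28 without FT_1 (adjusted p = 0.381). Mesothelial markers, of which 4 of 6 listed genes were in the table, summed to 200 in FT_1, 45.1 in FT_2, 46.3 in FT_3 and 2.32 to 3.51 in WT cells. *MSLN* (mesothelin) made up most of that sum, with 198.7 in FT_1 and 44.9 and 46.2 in FT_2 and FT_3. It was called higher in FT cells (log2 fold change 5.26, adjusted p = 0.00372; 4.21 without FT_1). The mesothelial transcription factor gene *WT1* was at 0 in all 3 FT libraries and at only 0.03 to 0.05 FPKM in the WT libraries. *UPK3B* stood at 1.03, 0.10 and 0.09 FPKM in FT_1, FT_2 and FT_3 and at 0.20 to 0.25 in WT cells. It was not called (log2 fold change 0.94, adjusted p = 0.481; -1.06 without FT_1, adjusted p = 0.145). *KLK11* was at most 0.20 FPKM in any library. The part of other cell types in the results below was not tested. In bulk RNA, fewer cells of a type and less RNA per cell cannot be told apart.

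RNA of 4 of the 6 NRF2 targets *GCLC*, *GCLM*, *TXNRD1*, *SRXN1*, *NQO1* and *HMOX1* was lower in FT cells, while the enzymes that remove superoxide and peroxides were mixed. With edgeR on the counts of all 6 libraries, 5 of the 10 genes were lower in FT cells at a Benjamini-Hochberg adjusted p under 0.05 (*GCLM*, *TXNRD1*, *SRXN1*, *HMOX1* and *SOD1*), whereas 18.9% of the 13482 genes tested were lower (2544 genes). None of the 10 was called higher (0 genes), whereas 20.0% of all genes were (2696 genes). At an unadjusted p under 0.05 edgeR counted 1 gene of the 10 higher (*GPX1*; 25.7% of all genes), DESeq2 called 1 higher at an adjusted p under 0.05, and limma on the FPKM values called 0. All 10 passed the filter on low counts. Their median log2 fold change was -0.81, beside 0.03 over all genes tested. The FT and WT libraries did not overlap in 6 of the 10 genes with FT cells lower (29.4% of all genes) and in 1 gene, *GPX1*, with FT cells higher (28.3% of all genes). At the threshold of the study's methods, an unadjusted p under 0.05 with a log2 fold change over 1 or under -1, 3 of the 10 genes were lower (8.83% of all genes) and 0 were higher (10.1% of all genes). These 3 were *GCLC*, *GCLM* and *SRXN1*.

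Without FT_1, 6 of the 10 genes were lower in FT cells, with *GCLC* added, and 2 were higher (*NQO1* and *GPX1*). The shares of all genes were then 31.5% lower and 30.6% higher, of 13765 tested, and the medians were -0.59 for the 10 genes and -0.02 for all genes. At the threshold of the methods, 4 of the 10 were then lower (12.2% of all genes) and 0 higher (11.0%), and FT_2 and FT_3 did not overlap with WT libraries in 6 genes with FT cells lower (38.3% of all genes) and in 2 with FT cells higher (37.6%). Leaving out WT_1, WT_2 or WT_3 gave 3 genes lower (10.9%, 11.2% and 12.3% of all genes) and 0 higher (10.9%, 11.5% and 12.7%). Of all genes, 15.1% were higher and 25.1% lower with library totals, 24.3% and 22.7% with DESeq2, 1837 higher and 29.2% lower of 12247 tested with limma on log2(FPKM + 1), and 13.6% and 12.9% with a replicate block. Without FT_2 they were 15.3% and 14.1%, and without FT_3 15.3% and 14.2%. Counts of the lists below under these settings stand beside these shares. The share of higher genes among all calls depended on the scaling. It was 51.5% with edgeR's TMM factors and 37.5% with library totals alone (2030 higher, 3386 lower), which moved the median of all genes by -0.15. With limma on log2(FPKM + 1), which uses no further scaling, it was 34.0% (1837 higher, 3573 lower), and 34.8% with a pseudocount of 0.1 and 32.5% with no filter. Unless another setting is named, the fold changes given below are those of the TMM scaling. The standard error (SE) is given for most genes with all 6 libraries. None of the 10 genes changed sign under another scaling.

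**Figure D1:**
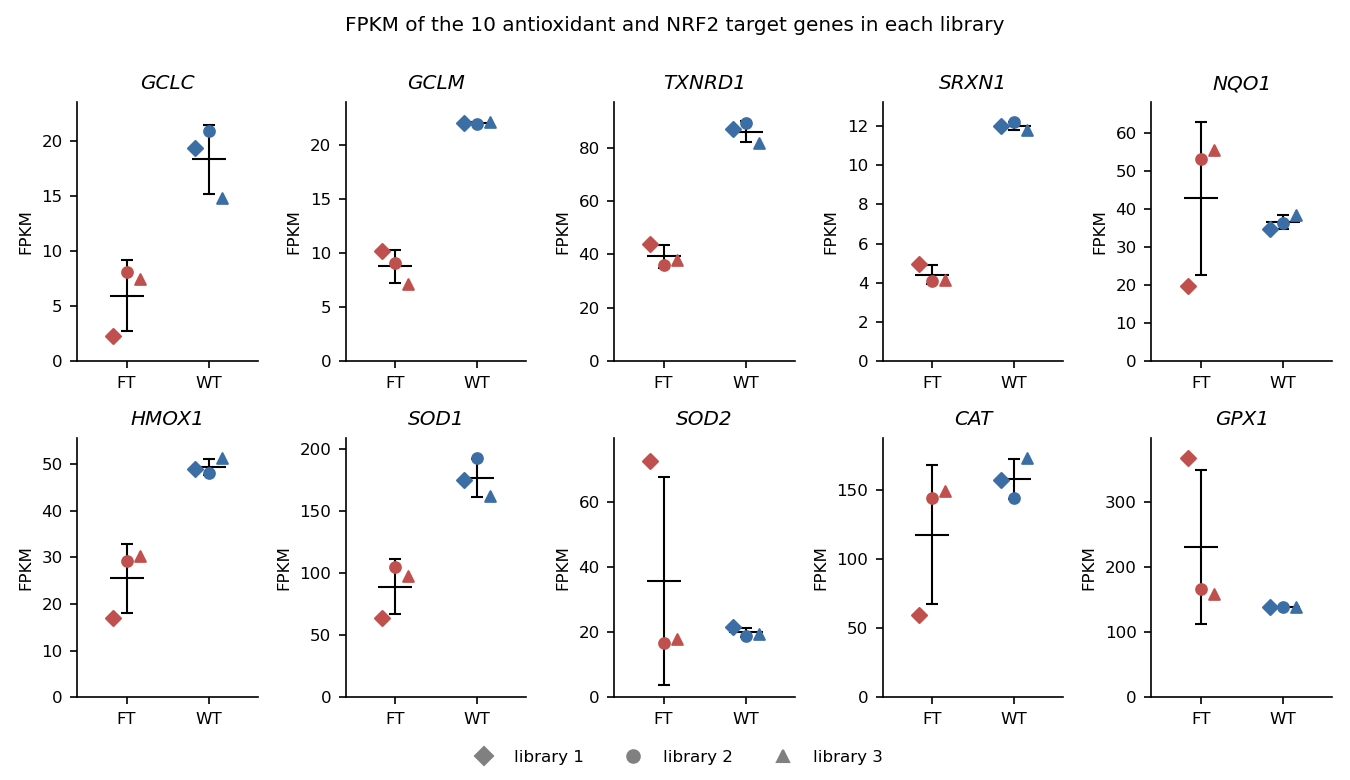
FPKM of the 10 antioxidant and NRF2 target genes in each library, with FT libraries in red and WT libraries in blue. Each panel is 1 gene, marker shapes give the library number, and the bar with whiskers is the mean with its SD (n = 3 per group). FT libraries lay below all WT libraries for *GCLC*, *GCLM*, *TXNRD1*, *SRXN1*, *HMOX1* and *SOD1*, and FT_1 lay far from FT_2 and FT_3 for *NQO1*, *SOD2*, *CAT* and *GPX1*.

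Glutathione synthesis begins with glutamate-cysteine ligase, whose catalytic subunit is encoded by *GCLC* (ENSBTAG00000015571) and whose modifier subunit is encoded by *GCLM* (ENSBTAG00000007842). The authors' table places *GCLC* on chromosome 23 from 6982172 to 7026855 and *GCLM* on chromosome 3 from 49581839 to 49599562, both on the plus strand. *GCLM* stood at 10.2, 9.03 and 7.11 FPKM in FT_1, FT_2 and FT_3, against 22.0, 21.9 and 22.1 FPKM in WT_1, WT_2 and WT_3. The WT libraries were nearly equal, and all 3 FT libraries lay below them. Its mean was 8.77 ± 1.55 for FT, against 22.0 ± 0.11 for WT (SD, n = 3), and the transcript fell by 1.17 on the log2 scale (SE 0.13, adjusted p = 0.002). Without FT_1 the log2 fold change was -1.28 (adjusted p = 3.28e-06), and the adjusted p was under 0.05 in 17 of 17 alternatives (1.10e-11 to 0.0183).

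*GCLC* stood at 2.26, 8.10 and 7.49 FPKM in FT_1, FT_2 and FT_3, against 19.4, 20.9 and 14.8 FPKM in WT_1, WT_2 and WT_3. FT libraries were all below WT libraries, and FT_1 was 3.45 times below the mean of FT_2 and FT_3. The difference with all 6 libraries was larger than that of *GCLM* but had a wider error, with a log2 fold change of -1.46 (SE 0.48), and was not called (adjusted p = 0.0584). Without FT_1 it was -1.07 (SE 0.13) and was called (adjusted p = 4.56e-05), and over all 17 alternatives the adjusted p ranged from 4.56e-05 to 0.158, with 7 under 0.05.

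The thioredoxin branch was represented by *TXNRD1* (ENSBTAG00000013912), the cytosolic thioredoxin reductase, and *SRXN1* (ENSBTAG00000010913), sulfiredoxin, which restores overoxidised peroxiredoxins. *TXNRD1* lies on chromosome 5 from 67898938 to 67961973 and *SRXN1* on chromosome 13 from 60402762 to 60408261 in the authors' table. *TXNRD1* stood at 44.0, 36.1 and 37.7 FPKM in FT_1, FT_2 and FT_3, against 87.0, 89.2 and 81.6 FPKM in WT_1, WT_2 and WT_3. *SRXN1* stood at 4.98, 4.10 and 4.14 FPKM in FT_1, FT_2 and FT_3, against 12.0, 12.2 and 11.8 FPKM in WT_1, WT_2 and WT_3. For both genes the groups did not overlap and FT_1 lay close to the other FT libraries. *TXNRD1* fell by 0.97 on the log2 scale (SE 0.10, adjusted p = 0.00135) and *SRXN1* fell by 1.29 (SE 0.13, adjusted p = 0.00132). Without FT_1 the log2 fold changes were -1.05 (adjusted p = 3.70e-07) and -1.37 (adjusted p = 3.84e-06). Each gene was called in 17 of 17 alternatives, with adjusted p from 4.18e-17 to 0.0163 for *TXNRD1* and from 1.23e-17 to 0.0195 for *SRXN1*.

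*HMOX1* (ENSBTAG00000015582, chromosome 5, 73623293 to 73630548) encodes heme oxygenase, which breaks heme down to biliverdin, iron and carbon monoxide, and is repressed by BACH1. It stood at 17.0, 29.2 and 30.4 FPKM in FT_1, FT_2 and FT_3, against 48.9, 47.96 and 51.3 FPKM in WT_1, WT_2 and WT_3. All FT libraries were below all WT libraries, with FT_1 the lowest. It fell by 0.79 on the log2 scale with all 6 libraries (SE 0.23, adjusted p = 0.0421). Without FT_1 the log2 fold change was -0.56 (adjusted p = 3.47e-05; 3.47e-05 to 0.119 over the 17 alternatives, 11 under 0.05). The call was lost without FT_2 (adjusted p = 0.0657), WT_1 (0.112), WT_2 (0.109) or WT_3 (0.119), and with a replicate block, while FT remained lower in each of these fits. The genes whose log2(FPKM + 1) was most alike over the 6 libraries were *EMP1* (Pearson r = 0.9994), *SCRN1* (0.9989) and *FOXN2* (0.9989), which is a description of 6 libraries in 2 groups. Like *HMOX1*, *EMP1* was lowest in FT_1, with an FPKM of 60.7, against 171.6 and 187.6 in FT_2 and FT_3 and 496.1 to 535.9 in WT cells.

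*NQO1* (ENSBTAG00000020632) encodes the cytosolic quinone reductase and is a standard readout of NRF2 activity. The authors' table places it on chromosome 18 from 36784720 to 36798053, on the minus strand. It stood at 19.7, 53.1 and 55.5 FPKM in FT_1, FT_2 and FT_3, against 34.7, 36.4 and 38.5 FPKM in WT_1, WT_2 and WT_3. FT_1 lay below and FT_2 and FT_3 lay above the WT libraries, so the groups overlapped. The log2 fold change was 0.39 with all libraries (SE 0.39, adjusted p = 0.46), and the exact permutation test on FPKM gave p = 0.60 (two-sided). Without FT_1 it was 0.74 (SE 0.07, adjusted p = 6.44e-06), the smallest of the 17 alternatives, whose adjusted p reached 0.884 and was under 0.05 in 1. *NQO1* in FT_2 and FT_3 thus stood in the opposite direction to *GCLM*, *TXNRD1*, *SRXN1* and *HMOX1*. Closest to *NQO1* over the 6 libraries were *APELA* (r = 0.9989), *EGR1* (0.9986) and *PARG* (0.9977). *EGR1*, an immediate early transcription factor gene, had an FPKM of 19.0 in FT_1, 122.1 and 124.4 in FT_2 and FT_3, and 56.3 to 68.4 in WT cells.

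Superoxide is converted to hydrogen peroxide by superoxide dismutases, of which *SOD1* (ENSBTAG00000018854, chromosome 1, 3824601 to 3833406) encodes the copper-zinc enzyme of the cytosol and *SOD2* (ENSBTAG00000006523, chromosome 9, 95955338 to 95966127) the manganese enzyme of mitochondria. *SOD1* stood at 63.9, 105.2 and 98.3 FPKM in FT_1, FT_2 and FT_3, against 175.1, 193.0 and 162.2 FPKM in WT_1, WT_2 and WT_3. The groups did not overlap, and FT_1 was the lowest. *SOD1* fell by 0.83 on the log2 scale (SE 0.21, adjusted p = 0.0247), and without FT_1 the value was -0.63 (adjusted p = 5.27e-05; 5.27e-05 to 0.0911 over 17 alternatives, 12 under 0.05). The call was lost without WT_1 (adjusted p = 0.078), WT_2 (0.0911) or WT_3 (0.0621), and with the trend over gene length removed. *SOD2* stood at 72.6, 16.7 and 18.0 FPKM in FT_1, FT_2 and FT_3, against 21.6, 19.0 and 19.5 FPKM in WT_1, WT_2 and WT_3. FT_1 was 4.19 times the mean of FT_2 and FT_3, which lay below the WT libraries by FPKM. The log2 fold change of *SOD2* was 0.98 with FT_1 (SE 0.59, adjusted p = 0.232) and -0.04 without it (SE 0.09, adjusted p = 0.744). Over the 17 alternatives its adjusted p ran from 0.123 to 0.744, so no difference between the groups was shown.

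Hydrogen peroxide is removed by catalase (*CAT*, ENSBTAG00000020980, chromosome 15, 64975271 to 65011223), mainly in peroxisomes, and by the selenoenzyme glutathione peroxidase (*GPX1*, ENSBTAG00000054195, chromosome 22, 50752499 to 50753719). *CAT* stood at 59.5, 143.9 and 148.7 FPKM in FT_1, FT_2 and FT_3, against 156.7, 143.8 and 172.8 FPKM in WT_1, WT_2 and WT_3. FT_2 and FT_3 lay within the WT range, and FT_1 was 2.46 times below their mean. Its log2 fold change was -0.26 with all libraries (SE 0.36, adjusted p = 0.595) and 0.06 without FT_1 (SE 0.08, adjusted p = 0.532; 0.27 to 0.776 over 17 alternatives). *GPX1* stood at 367.9, 167.2 and 159.8 FPKM in FT_1, FT_2 and FT_3, against 138.5, 138.4 and 139.3 FPKM in WT_1, WT_2 and WT_3. All FT libraries exceeded all WT libraries, and FT_1 was 2.25 times the mean of FT_2 and FT_3. The log2 fold change of *GPX1* was 0.89 with all libraries (SE 0.33, adjusted p = 0.0788) and was not called. It was 0.41 without FT_1 (SE 0.06, adjusted p = 1.45e-04), and 3 of 17 alternatives had an adjusted p under 0.05 (1.45e-04 to 0.222).

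**Figure D2:**
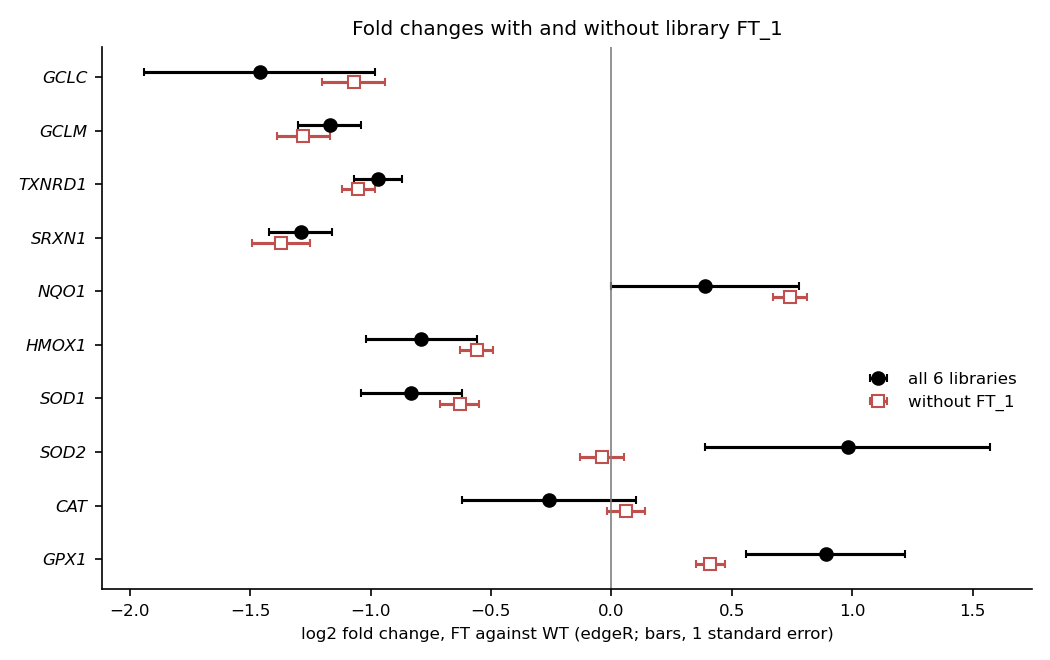
Log2 fold change of FT against WT for the 10 genes from edgeR, with all 6 libraries (black circles) and without FT_1 (open red squares). Bars are 1 standard error. *GCLM*, *TXNRD1* and *SRXN1* lay near the same value in both fits, whereas *SOD2* moved from 0.98 to -0.04 and *NQO1* from 0.39 to 0.74.

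FPKM, being scaled by length, also allows levels to be compared between genes. In WT cells the order was *SOD1* (177 ± 15.5), *CAT* (158 ± 14.6), *GPX1* (139 ± 0.465), *TXNRD1* (85.9 ± 3.93), *HMOX1* (49.4 ± 1.70), *NQO1* (36.5 ± 1.87), *GCLM* (22.0 ± 0.11), *SOD2* (20.0 ± 1.37), *GCLC* (18.4 ± 3.16) and *SRXN1* (12.0 ± 0.195; mean FPKM ± SD, n = 3). *SOD1* and *CAT* overlapped between WT libraries, as did *SOD2* and *GCLC*, so those neighbours were not separated by their spread. The means of FT cells were ordered *GPX1* (232 ± 118), *CAT* (117 ± 50.1), *SOD1* (89.1 ± 22.1), *NQO1* (42.8 ± 20.0), *TXNRD1* (39.3 ± 4.20), *SOD2* (35.7 ± 31.9), *HMOX1* (25.5 ± 7.40), *GCLM* (8.77 ± 1.55), *GCLC* (5.95 ± 3.21) and *SRXN1* (4.41 ± 0.497). Among neighbours in this order, FT libraries overlapped except between *GPX1* and *CAT*, between *SOD1* and *NQO1*, and between *HMOX1* and *GCLM*. Without FT_1 the order was the same except that *HMOX1* (29.8) stood above *SOD2* (17.3), as it did in FT_2 and FT_3 taken singly. *GPX1* held the first place in each FT library and the third in each WT library. *NQO1* was above *TXNRD1* in FT_2 and FT_3 and below it in FT_1 and in all WT libraries. The FPKM of the 10 genes summed to 662, 572 and 567 for FT_1 to FT_3, against 716, 723 and 714 for WT_1 to WT_3.

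Ratios of partner genes within a library do not depend on the scaling between libraries, but they do depend on a trend over gene length. The log2 ratio of *TXNRD1* to *SRXN1* was 3.14, 3.14 and 3.19 in FT_1, FT_2 and FT_3, against 2.86, 2.87 and 2.79 in WT_1, WT_2 and WT_3. It was higher in all 3 FT libraries, by 0.32, with no overlap, and the same difference was found without FT_1 (0.32). As a difference of edgeR fold changes it was 0.31, and only 0.05 with the trend over gene length removed, so its size depended on that trend. The log2 ratio of *SOD2* to *SOD1* was 0.18, -2.66 and -2.45 in FT_1, FT_2 and FT_3, against -3.02, -3.35 and -3.06 in WT_1, WT_2 and WT_3. FT values again lay above WT values, with a difference of 1.50 that was 0.59 without FT_1. As a difference of edgeR fold changes it was 1.81, and 1.62 with the trend over gene length removed. The log2 ratio of *GCLC* to *GCLM* was -2.17, -0.16 and 0.08 in FT_1, FT_2 and FT_3, against -0.18, -0.07 and -0.58 in WT_1, WT_2 and WT_3. These groups overlapped, and the difference of -0.48 became 0.23 without FT_1. As a difference of edgeR fold changes it was -0.29, and -0.49 with the trend over gene length removed. Exact two-sided permutation tests gave p = 0.10 for the first ratio, 0.10 for the second and 0.90 for the third (0.15, 0.15 and 0.90 after Benjamini-Hochberg adjustment over the 3 ratios), and 0.10 is the smallest p that 3 against 3 can give.

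**Figure D3:**
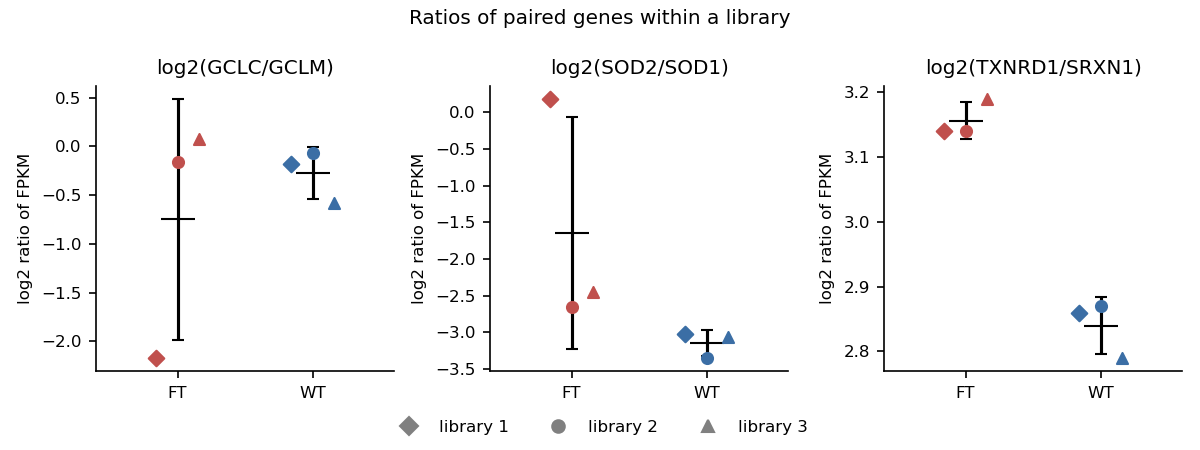
Log2 ratio of the FPKM of paired genes within each library, with FT in red and WT in blue, and the mean with its SD (n = 3). The vertical axes differ between panels and do not start at 0. The *TXNRD1* to *SRXN1* ratio was 3.14 to 3.19 in FT libraries and 2.79 to 2.87 in WT libraries.

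The genes that control NRF2 were examined as a list of 12, of which 11 passed the filter on low counts. edgeR called 1 higher and 2 lower in FT cells, where the shares of all genes were 20.0% higher and 18.9% lower. The median log2 fold change was 0.25, and 0.11 with library totals and 0.06 with limma on log2(FPKM + 1). Without FT_1 the counts were 4 higher and 4 lower (30.6% and 31.5% of all genes; list median 0.09). DESeq2 called 3 higher, and a replicate block gave 1 lower. The 2 lower calls became 1 without FT_2, FT_3 or WT_3 and 0 without WT_1 or WT_2, where 10.9% to 14.2% of all genes were lower, and the 1 higher call became 2 without WT_3 (12.7% of all genes). *NFE2L2*, the NRF2 gene, stood at 100.6, 71.7 and 70.2 FPKM in FT_1, FT_2 and FT_3, against 77.7, 76.2 and 72.4 FPKM in WT_1, WT_2 and WT_3. FT_1 was the highest and FT_2 and FT_3 the lowest of the 6 by FPKM, although all FT libraries lay above WT libraries in TMM-scaled counts. No difference was called (log2 fold change 0.25, adjusted p = 0.215; without FT_1 0.08, adjusted p = 0.27, with 0.168 to 0.721 over the alternatives). *KEAP1*, for the adaptor that presents NRF2 to a ubiquitin ligase, ranged from 21.9 to 22.8 FPKM in FT cells and from 20.4 to 22.6 FPKM in WT cells. The log2 fold change was 0.20 (adjusted p = 0.0687), and 0.20 without FT_1 (adjusted p = 0.0385; 0.0385 to 0.666 over the alternatives), a value that was 0.05 with library totals alone.

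*BACH1*, the repressor that competes with NRF2 at *HMOX1*, stood at 16.4, 6.27 and 7.78 FPKM in FT_1, FT_2 and FT_3, against 14.7, 13.3 and 13.5 FPKM in WT_1, WT_2 and WT_3. FT_1 lay above and FT_2 and FT_3 lay below the WT libraries. The log2 fold change was -0.29 with all libraries (adjusted p = 0.541) and -0.80 without FT_1 (adjusted p = 7.44e-05; 7.44e-05 to 0.922 over the alternatives). *MAFK*, a small MAF partner of both NRF2 and BACH1, stood at 14.7, 9.82 and 9.74 FPKM in FT_1, FT_2 and FT_3, against 3.26, 2.03 and 3.53 FPKM in WT_1, WT_2 and WT_3. It rose in FT cells with no overlap, by a log2 fold change of 2.10 (SE 0.30, adjusted p = 0.00348), and by 1.89 without FT_1 (adjusted p = 3.72e-05; 1.11e-09 to 0.0218 over the alternatives).

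*SQSTM1* encodes the autophagy receptor p62, which binds KEAP1. It stood at 85.3, 129.7 and 128.6 FPKM in FT_1, FT_2 and FT_3, against 244.7, 220.8 and 231.3 FPKM in WT_1, WT_2 and WT_3. All FT libraries were lower, and the gene fell by 0.86 on the log2 scale (SE 0.19, adjusted p = 0.0154; without FT_1 -0.68, adjusted p = 7.54e-06). The call was lost without WT_1 (adjusted p = 0.0639), WT_2 (0.0534) or WT_3 (0.0561), and 7.54e-06 to 0.0639 was the range over the alternatives. *RBX1*, a subunit of the same ubiquitin ligase, fell by 0.31 (SE 0.08, adjusted p = 0.0268; without FT_1 -0.34, adjusted p = 0.00245). Its call was lost without FT_2 (0.0756), FT_3 (0.0868), WT_1 (0.0978) or WT_2 (0.092) and with a replicate block, with 0.00245 to 0.0978 over the alternatives.

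**Figure D4:**
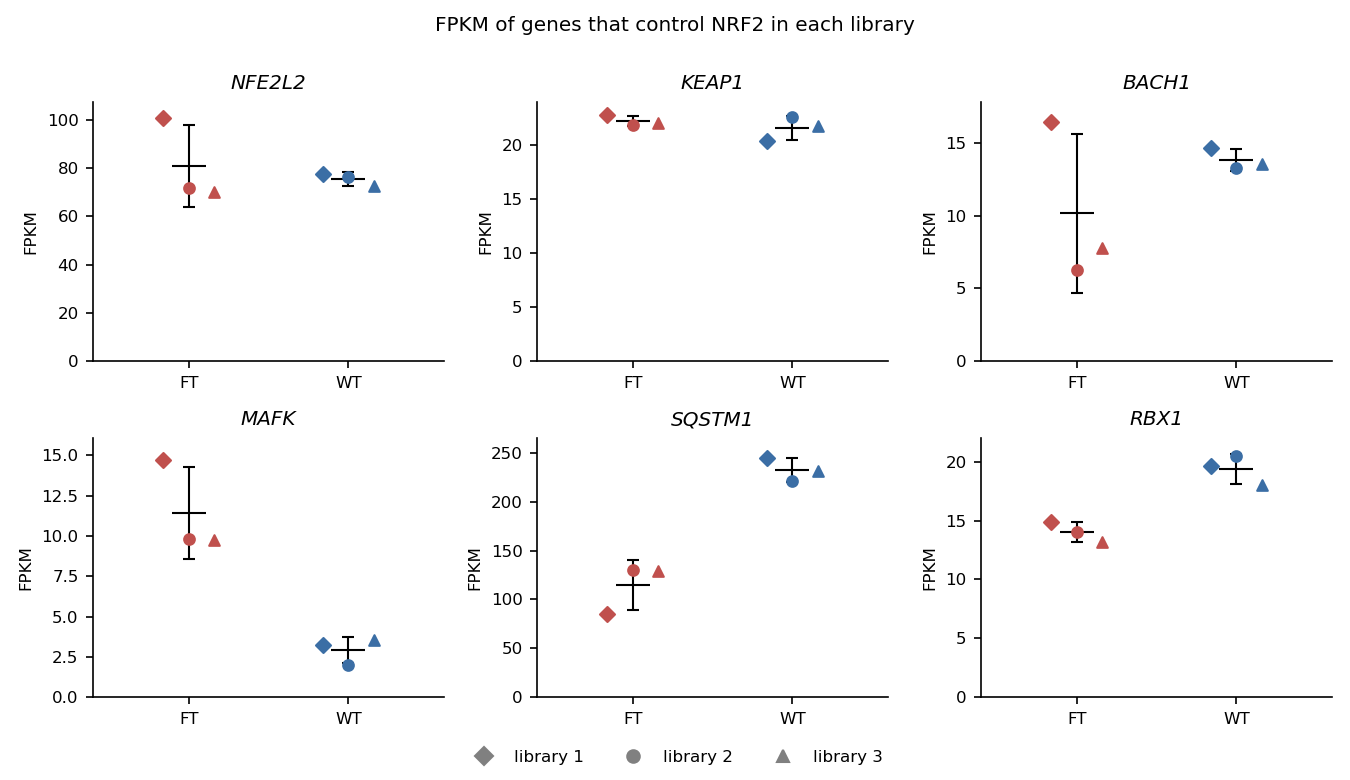
FPKM of 6 genes that control NRF2 in each library, with FT in red, WT in blue, marker shapes for the library number, and the mean with its SD (n = 3). *MAFK* was higher and *SQSTM1* and *RBX1* were lower in all 3 FT libraries, while *BACH1* was 16.4 in FT_1 against 6.27 and 7.78 in FT_2 and FT_3.

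Other NRF2 targets were taken as a list of 28 symbols, of which 25 were in the table on 27 rows and 26 rows were tested. edgeR called 10 lower and 0 higher in FT cells (18.9% and 20.0% of all genes), and the median log2 fold change was -0.46 (0.03 over all genes). At an unadjusted p under 0.05, 2 rows were higher (25.7% of all genes), DESeq2 called 1 higher and limma called 0. Without FT_1 the calls were 17 lower and 4 higher (31.5% and 30.6% of all genes; list median -0.61). Leaving out any other library gave 7 to 9 lower (10.9% to 14.2% of all genes) and 0 higher (10.9% to 15.3%). *GSTM3*, a glutathione transferase, averaged 1.85 ± 1.03 FPKM in FT cells, against 12.8 ± 0.376 for WT (SD, n = 3) and fell by 2.64 on the log2 scale (SE 0.38, adjusted p = 0.00383). *GSTA4*, whose product conjugates the lipid peroxidation aldehyde 4-hydroxynonenal, stood at 20.3, 17.5 and 15.9 FPKM in FT_1, FT_2 and FT_3, against 51.9 to 58.2 in WT cells. It fell by 1.45 (SE 0.10, adjusted p = 7.07e-04). *CBR1*, a carbonyl reductase, fell by 1.46 (SE 0.29, adjusted p = 0.0104), a call lost with the length trend removed and a replicate block together. Without FT_1 the log2 fold changes of *GSTM3*, *GSTA4* and *CBR1* were -3.17, -1.54 and -1.75. *GSTM1* and *GSTP1* each stood on 2 rows, and glutathione transferases of a class have closely related sequences, so their counts are uncertain.

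The glutathione system list (24 of 25 symbols in the table, 23 tested) held 3 genes higher and 9 lower (20.0% and 18.9% of all genes), with a median log2 fold change of -0.53. Without FT_1 it held 4 higher and 15 lower (30.6% and 31.5% of all genes; list median -0.57), and leaving out any other library gave 3 higher (10.9% to 15.3% of all genes) and 6 to 8 lower (10.9% to 14.2%). *GPX3*, for the secreted glutathione peroxidase, stood at 115.5, 195.4 and 208.1 FPKM in FT_1, FT_2 and FT_3, against 30.7, 25.5 and 36.1 FPKM in WT_1, WT_2 and WT_3. Every FT library was well above every WT library, and *GPX3* rose by 2.65 on the log2 scale (SE 0.28, adjusted p = 0.00163; 2.88 without FT_1). *GSTT1* rose to 13.6 ± 3.56 in FT cells, against 4.04 ± 0.876 in WT cells (mean FPKM ± SD, n = 3), a log2 fold change of 1.91 (SE 0.25, adjusted p = 0.00297; 1.71 without FT_1). *GSTO1*, an omega-class transferase with reductase activity, fell from 14.9 ± 1.70 to 4.26 ± 1.43, a log2 fold change of -1.66 (SE 0.24, adjusted p = 0.0039; -1.95 without FT_1). These 3 genes were called in every alternative run.

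Among 17 tested genes of the thioredoxin and peroxiredoxin system, 1 was higher and 7 were lower (20.0% and 18.9% of all genes), with a median log2 fold change of -0.45. Without FT_1, 2 were higher and 11 lower (30.6% and 31.5% of all genes; list median -0.62). Library totals and limma on log2(FPKM + 1) each gave 11 lower (25.1% and 29.2% of all genes), and DESeq2 gave 3 higher (24.3%). The number of lower genes was 4 without FT_3, 3 without WT_1, 3 without WT_2 and 4 without WT_3 (10.9% to 14.2% of all genes), and the number of higher genes was 2 without FT_2 (15.3%). *PRDX1*, the abundant cytosolic peroxiredoxin, stood at 244.6, 325.5 and 304.3 FPKM in FT_1, FT_2 and FT_3, against 615.3, 715.1 and 643.7 FPKM in WT_1, WT_2 and WT_3. The groups were far apart, and *PRDX1* fell by 1.01 on the log2 scale (SE 0.15, adjusted p = 0.00387; -0.89 without FT_1). The sestrin genes *SESN1* and *SESN2*, whose products are stress-responsive regulators of nutrient signalling, fell by 1.41 (SE 0.13, adjusted p = 0.00117) and by 1.15 (SE 0.28, adjusted p = 0.0222). Without FT_1 their log2 fold changes were -1.33 and -1.52. The call of *SESN2* was lost without FT_3 (adjusted p = 0.0697), WT_1 (0.0676), WT_2 (0.0638) or WT_3 (0.0753), within a range of 4.66e-07 to 0.0753 over the alternatives.

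**Figure D5:**
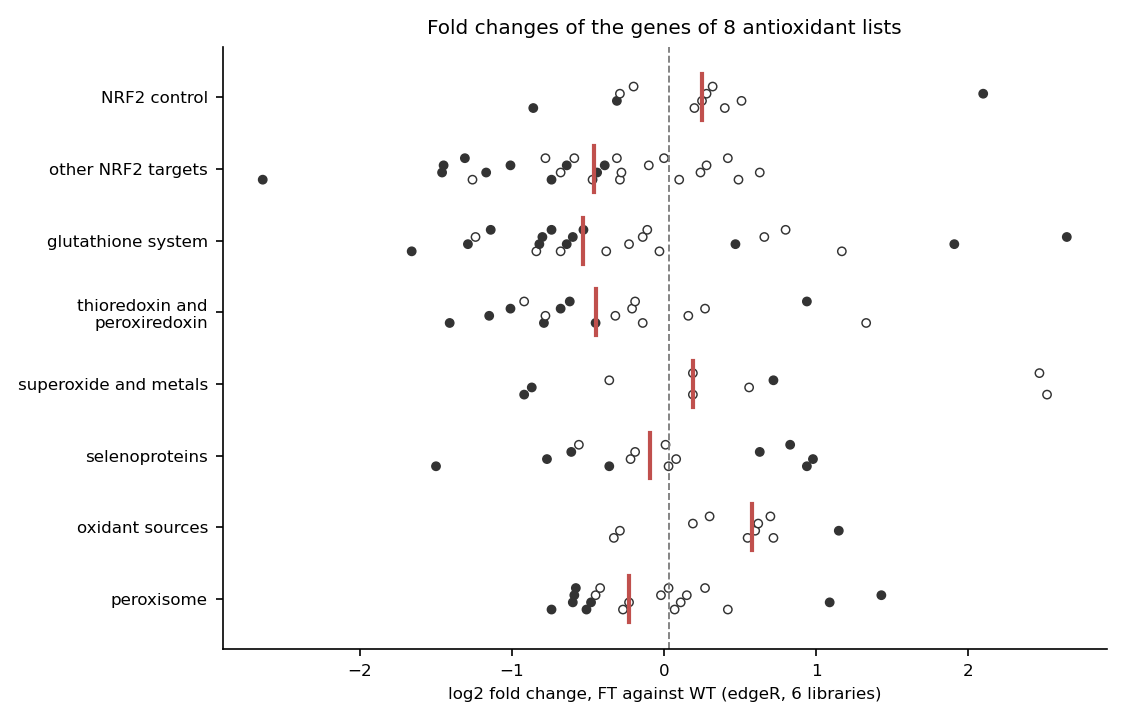
Log2 fold change of FT against WT (edgeR, 6 libraries) for the tested genes of 8 lists that exclude the 10 genes themselves. Each circle is a gene row, filled where the adjusted p was under 0.05, vertical offsets within a list carry no value, red bars are list medians and the dashed line is the median of all genes (0.03). The medians of other NRF2 targets, the glutathione system and the thioredoxin and peroxiredoxin list were -0.46, -0.53 and -0.45.

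The list of superoxide and metal handling genes had 9 tested rows, of which 1 was higher and 2 were lower (20.0% and 18.9% of all genes), with a median log2 fold change of 0.19 that was -0.51 without FT_1, 0.05 with library totals, -0.03 with a replicate block and -0.27 with limma on log2(FPKM + 1). Without FT_1, 2 were higher and 6 lower of 10 tested (30.6% and 31.5% of all genes). Library totals, limma and a replicate block gave 0 higher and DESeq2 gave 2. The number of lower genes was 1 without FT_2, FT_3, WT_1 or WT_2 (10.9% to 14.2% of all genes), and the number of higher genes was 0 without FT_3, WT_1, WT_2 or WT_3 (10.9% to 15.3%). *SLC40A1*, for the iron exporter ferroportin, fell by 0.87 on the log2 scale (SE 0.16, adjusted p = 0.00797; -0.80 without FT_1). *ATOX1*, a copper chaperone gene, fell by 0.92 (SE 0.23, adjusted p = 0.0228; -1.15 without FT_1). *TFRC*, for the transferrin receptor that brings iron into cells, stood at 13.3, 8.11 and 10.2 FPKM in FT_1, FT_2 and FT_3, against 6.90 to 7.59 in WT cells. It rose by 0.72 (SE 0.18, adjusted p = 0.0245; 0.53 without FT_1). The call of *ATOX1* was lost without FT_2 (adjusted p = 0.0529), FT_3 (0.0706), WT_1 (0.0832) or WT_2 (0.0876) and with the length trend removed, with 8.92e-05 to 0.112 over the alternatives. That of *TFRC* was lost without FT_3 (0.0607), WT_1 (0.0932), WT_2 (0.0741) or WT_3 (0.0865), with library totals, with a replicate block and with limma on FPKM, with 0.0024 to 0.0933 over the alternatives.

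Selenoproteins include several glutathione peroxidases and the thioredoxin reductases. Of the 14 tested genes for other selenoproteins and for selenocysteine synthesis, 4 were higher and 4 lower (20.0% and 18.9% of all genes), with a median log2 fold change of -0.09, and without FT_1 4 were higher and 5 lower (30.6% and 31.5% of all genes; list median -0.05). The median was -0.24 with library totals, -0.23 with limma on log2(FPKM + 1) and -0.03 with the length trend removed. The lower count was 2 without WT_1, WT_2 or WT_3 (10.9% to 12.3% of all genes). *SELENOO*, a mitochondrial selenoprotein gene, stood at 13.2, 14.3 and 13.8 FPKM in FT_1, FT_2 and FT_3, and at 7.77 to 7.85 FPKM in WT cells, with FT_1 the lowest of the FT libraries. It rose by 0.98 on the log2 scale (SE 0.08, adjusted p = 8.98e-04; 1.02 without FT_1). *SELENOM*, of the endoplasmic reticulum, rose by 0.94 (SE 0.09, adjusted p = 0.0014; 0.97 without FT_1). *PSTK*, whose product phosphorylates the seryl group on the selenocysteine transfer RNA, fell by 1.50 (SE 0.25, adjusted p = 0.00616; -1.46 without FT_1).

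Oxidant sources, such as NADPH oxidases and flavin oxidases, had 10 tested genes of 15 in the table, of which 1 was higher and 0 lower (20.0% and 18.9% of all genes). The median log2 fold change was 0.58, and 0.36 with a replicate block and 0.11 with limma on log2(FPKM + 1). Without FT_1 it was 0.12, with 2 higher and 2 lower (30.6% and 31.5% of all genes). For the lower direction edgeR counted 1 at an unadjusted p under 0.05 (23.7% of all genes), DESeq2 called 0, and limma and library totals gave 1. DESeq2 called 2 higher. *CYBA*, for the p22phox subunit of several NADPH oxidases, stood at 8.65, 7.33 and 7.27 FPKM in FT_1, FT_2 and FT_3, against 4.02, 3.66 and 4.02 FPKM in WT_1, WT_2 and WT_3. It rose by 1.15 on the log2 scale with no overlap (SE 0.10, adjusted p = 0.00113; 1.07 without FT_1). Among 19 genes of peroxisome assembly and function, the organelle that houses catalase, 2 were higher and 6 lower (20.0% and 18.9% of all genes), with a list median of -0.23 that was -0.39 with library totals. Without FT_1 they were 3 and 7 (30.6% and 31.5% of all genes; list median -0.15), the lower count was 3 without WT_1 or WT_2 (10.9% and 11.2% of all genes), and the higher count was 1 without FT_2, WT_1 or WT_3 (10.9% to 15.3%). *PEX26*, which anchors the peroxisomal import ATPases, rose by 1.43 (SE 0.15, adjusted p = 0.00162; 1.40 without FT_1). *PEX10*, an import ubiquitin ligase, rose by 1.09 (SE 0.29, adjusted p = 0.0295; 1.07 without FT_1), a call lost without FT_2 (0.0818), WT_1 (0.0756) or WT_3 (0.104) and with limma on FPKM without a filter, with 0.00168 to 0.104 over the alternatives. *PEX7*, the receptor for a peroxisomal targeting signal, fell by 0.74 (SE 0.09, adjusted p = 0.00251; -0.74 without FT_1).

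The 8 lists held 135 gene rows when each row was taken once, of which 125 were tested, 13 were higher and 38 were lower (20.0% and 18.9% of all genes; median log2 fold change -0.21). Without FT_1, 25 were higher and 63 lower of 126 tested (30.6% and 31.5% of all genes; list median -0.25). *PRDX1*, *TXN*, *GSR* and *SLC7A11* stood in more than 1 list.

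Each of the remaining marker lists summed to an FPKM of at most 13.1 in any library. Leukocyte markers (6 of 8 in the table) summed to an FPKM of 3.55 to 4.50 in FT cells and 9.62 to 11.2 in WT cells, with *CD14* the most abundant, and *CSF1R* at 0 in FT_1. Endothelial markers (7 of 7) summed to 0.51 to 1.52 over the 6 libraries, with *PECAM1* leading in WT cells, *VWF* in FT_2 and FT_3, and *KDR* at 0 in FT cells. Of erythroid markers 3 of 8 were in the table and summed to at most 0.83, with *AHSP* leading in WT_1 and WT_2 and at 0 in FT cells. Skeletal muscle markers (3 of 6) summed to 3.78 to 5.77 in FT cells, where *DES* led, and to 1.20 to 2.05 in WT cells. Markers of neural crest and glia (3 of 5), led by *S100B*, summed to 13.1 in FT_1, 5.86 in FT_2, 4.31 in FT_3 and 9.14 to 9.95 in WT cells. Adipocyte markers (5 of 5) summed to 1.58 in FT_1, 6.22 in FT_2, 5.94 in FT_3 and 3.62 to 4.54 in WT cells, with *LEP* leading in FT_2 and FT_3, *PLIN1* in FT_1 and *CIDEC* in WT cells, and with *ADIPOQ* at 0 in FT cells. Chondrocyte markers (4 of 5), led by *SOX9* in FT cells and by *ACAN* in WT cells, summed to 2.34 in FT_1, 0.40 in FT_2, 0.43 in FT_3 and 0.85 to 1.17 in WT cells, with *COL2A1* at 0 in all libraries but FT_1. Of the markers in this paragraph, edgeR called *DES* and *LEP* higher and *CD68*, *CD163*, *MYH3*, *CIDEC* and *ACAN* lower (20.0% and 18.9% of all genes). The calls of *DES* and *CIDEC* held in 17 of 17 alternatives, and each of the others was lost in some. Without FT_1, *CD14*, *AHSP*, *PECAM1*, *MYF5* and *S100B* were called lower as well (31.5% of all genes).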

How the data were processed

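Poly(A) RNA of 6 bEF cultures was sequenced. Alignment by the authors used HISAT, and expression was estimated by StringTie and edgeR. The submitters' processing notes name HISAT2 2.0, StringTie 1.3.0, Bowtie 0.12.2 and mm8, a mouse build, and a cattle build is not given in the sources used here, so coordinates are those of the authors' table. The counts and the FPKM values were deposited by the authors in 1 table. How reads of close gene copies were assigned is not given in the sources used here. Counts were tested with edgeR 4.0.16 in R 4.3.3 (TMM, filterByExpr, robust quasi-likelihood test, Benjamini-Hochberg adjustment over all genes tested), after the code was tested on simulated data. Alternatives used other scalings, no filter, DESeq2 1.42.0, limma 3.58.1 on log2(FPKM + 1) with a mean FPKM of at least 0.5, removal of a gene length trend, a replicate block, the threshold of the study's methods and each library left out. Alternatives for the pathway lists were added after the data were seen.

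The members and lists were chosen with earlier results of these data known. Named genes were the 10 members, *NFE2L2*, *KEAP1* and *BACH1*, up to 3 genes per pathway list with the largest absolute log2 fold change at an adjusted p under 0.05 and no overlap of scaled counts between groups, the most abundant gene of each marker list, and the 3 genes most correlated with *HMOX1* or *NQO1*. Other genes were named after their values were seen. Replicates were separate fetuses, and no pair of libraries agreed within sampling noise (mean chi-square per gene at least 11.7). Genes outside the table were not analysed here.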

Additional observations from a re-analysis of the deposited data

How the results depend on the processing

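Over the 17 alternatives, the log2 fold changes of the 10 genes kept direction and side of the threshold in 146 of 170 cases, gained a call in 11 and lost one in 11. The remaining 2 reversed, both without FT_1: *SOD2* to -0.04 (highest 1.32, with another library left out) and *CAT* to 0.06 (lowest -0.54, with limma on log2(FPKM + 0.1)). The *GCLC* to *GCLM* log2 ratio, -0.48 in all, reversed to 0.23 without FT_1 (lowest -0.89). In each case the cause was not tested. With single libraries left out, genes called ranged from 1499 to 4208 higher and from 1504 to 4335 lower over all genes, and from 0 to 2 higher and from 3 to 6 lower among the 10.

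At the threshold of the study's methods, 1366 genes were higher and 1190 lower, with 3 of the 10 lower. DESeq2 called 1 of the 10 higher, as did edgeR with the length trend removed (19.4% of all genes). limma on log2(FPKM + 1) without a filter called 1744 genes higher. Past the threshold of the methods stood 2556 genes of 13482 tested and 3 of the 10 with edgeR. With limma on log2(FPKM + 1) they were 1488 of 12247 tested and 5 of the 10. They were 1479 of 17645 tested and 5 with no filter, and 2200 of 12247 tested and 5 with a pseudocount of 0.1. With edgeR and the length trend removed they were 2492 of 13482 tested and 5. These 5 included *GPX1*, which was higher in FT cells (log2 fold change 1.12).

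With a replicate block, 1828 genes were called higher (13.6%), 1735 lower (12.9%) and 4 of the 10 lower. With the length trend removed as well as the replicate block, the numbers were 1663 (12.3%), 1675 (12.4%) and 3. Past the threshold of the methods were then 2205 genes of 13482 tested and 5 of the 10, including *GPX1*, which was higher (log2 fold change 1.01). Same-numbered libraries did not deviate together (r = -0.05, -0.043 and 0.058 over 8853 genes), so the numbers were not taken as pairs.

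The smallest count of any of the 10 genes in a library was 238 (*SRXN1* in FT_2), and libraries of a group varied by 8.23% to 57.6% beyond counting noise. Outlying libraries were not tested for within groups of 3.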
